A study of Mus musculus with 18 samples.

Results

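Liver RNA of control mouse offspring at postnatal day 150 was set against that of control offspring at postnatal day 21. The 2 groups were chosen by their labels alone and hold 6 of the 18 arrays of the series, 3 at day 150 and 3 at day 21. The mice belonged to DUK, an outbred line bred from several outbred and inbred lines, and both groups came from dams fed an isoenergetic diet with 20% protein by weight in pregnancy and in lactation. The other 12 arrays are 3 each from HP pregnancy and HP lactation offspring at day 150 and at day 21. Dams of these offspring had 40% protein in the named period and 20% in the other. These 12 arrays also entered the filter, the choice of probe sets and the estimate of spread behind the errors and p-values reported. Below they serve to view the same age step in other livers and to compare it with control. Day 21 and day 150 livers are from different animals, all kept in a 12 h light and 12 h dark cycle with free access to feed and water. Each array measured a pool of liver RNA of 5 µg on an Affymetrix Mouse Genome 430 2.0 array, on which sets of short probes report one transcript each by their brightness (signal). The labels differ on the pools: one gives livers of 3 animals per pool, another 4 samples per pool at day 21 and 3 to 4 at day 150, and the design text combines 4 to 5 animals of a group into 3 pools. Errors and p-values given here measure how far pools differ, and would be too low where an animal entered more than 1 pool. The animals had a pellet concentrate. Sex and the time of day at sampling are not given in the sources used here.

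The weeks between these ages cover weaning, puberty and the end of liver growth. In rodents a suckling pup lives on fat-rich milk, so its liver oxidises fatty acids and makes glucose from other fuels, while the adult liver takes up carbohydrate with its meals. At puberty the pituitary of male mice settles into bursts of growth hormone and that of females into nearly steady release, and this difference sets a group of male-biased and a group of female-biased liver transcripts. Over the same time the liver switches off fetal genes such as Afp, its support cells lay down less new matrix, and its immune cells mature.

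The array data separated the ages. The correlation of log2 signals between arrays had a median of 0.974 within day 150, 0.975 within day 21 and 0.948 between the days. Of 11018 genes tested, 1069 rose (9.70%) and 890 fell (8.08%) at day 150 against day 21, 17.8% in all, by limma with a Benjamini-Hochberg adjusted p under 0.05. The 3 day 150 signals lay wholly above or wholly below the 3 day 21 signals in 35.2% of all genes tested, and in 1905 of the 1959 that passed. A change above 2-fold was reached by 258 of the genes that rose and 242 of those that fell, and one above 4-fold by 59 and 60. Without day 150 replicate 2 the counts were 643 and 508, and without day 21 replicate 2 they were 739 and 589. The median log2 change of all genes was 0.02. Changes below are log2 of day 150 over day 21 ± their standard error (SE), with 3 arrays a group and the adjusted p of the fit over all genes. Counts of list members below are to be read beside the 9.70% that rose and the 8.08% that fell among all genes.

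Hepatocyte markers show the tissue as labelled. Alb, the gene of serum albumin, had signals of 27360.5, 36474 and 37112 at day 150, against 31574, 36042 and 27552 at day 21, and did not pass (log2 change 0.08 ± 0.19, adjusted p = 0.82). Its sign turned with the Gapdh ratio described below in the fit. Of 11 hepatocyte markers tested, 1 rose (Hnf4a, a master regulator of hepatocyte genes, 0.43 ± 0.11, adjusted p = 0.012) and 0 fell. Without day 150 replicate 2 its adjusted p was 0.058, and 1 of its 3 other kept probe sets had the same sign. Markers of bile duct cells (6 tested), T and NK cells (4 tested), neutrophils (6 tested) and fat and muscle (2 tested) had no member that passed in limma, with 0, 2, 2 and 1 at an unadjusted p under 0.05. A member fell among T and NK cell and among fat and muscle genes without day 150 replicate 3, and 1 neutrophil gene rose without day 21 replicate 3. Of 8 erythroid genes 1 rose (Car1, 1.04) and 2 fell (Car2, -2.19, and Klf1, -0.92), and Klf1 lost its call without any one control array. Of 11 pancreatic acinar genes on the array 2 were above the filter, and Cela1, an elastase, rose, with 5994, 7616 and 6739 at day 150, against 2438, 2774 and 1892 at day 21 (1.53 ± 0.17, adjusted p = 6.6e-06).

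A measure of RNA quality moved with age. The ratio of the 3′ to the 5′ control probe set of Gapdh was 1.30, 1.79 and 1.35 on the day 150 arrays, against 0.989, 0.993 and 0.844 on the day 21 arrays, and that of beta-actin 4.13, 6.38 and 4.06 against 3.07, 2.40 and 2.16. All 3 day 150 values lay above all 3 day 21 values in both, while that of the transferrin receptor overlapped, with 5.33, 1.53 and 19.8 at day 150, against 18.5, 10.7 and 1.97 at day 21. For the Gapdh and beta-actin ratios, age and this quality measure cannot be told apart. With the Gapdh ratio added to the fit, 1930 of the 1959 genes kept their sign and the median size of their change was 0.910 times the reported one, but 33 genes rose and 19 fell, all 52 among the 1959. Of the 944 genes that passed and have further probe sets above the filter, 641 had all of them change in the same direction and 303 had at least 1 in the opposite direction. One day 21 array also differed in sex-linked transcripts. Xist, the noncoding RNA that silences an X chromosome in females, had a signal of 7343 in day 21 replicate 2 and between 28.0 and 70.2 on the other 5 arrays, while Y-linked Eif2s3y had 1431 there and 2003 to 2917 on the others. Without the 2 arrays of the series with Xist signal, 790 genes rose and 641 fell.

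**Figure D1:**
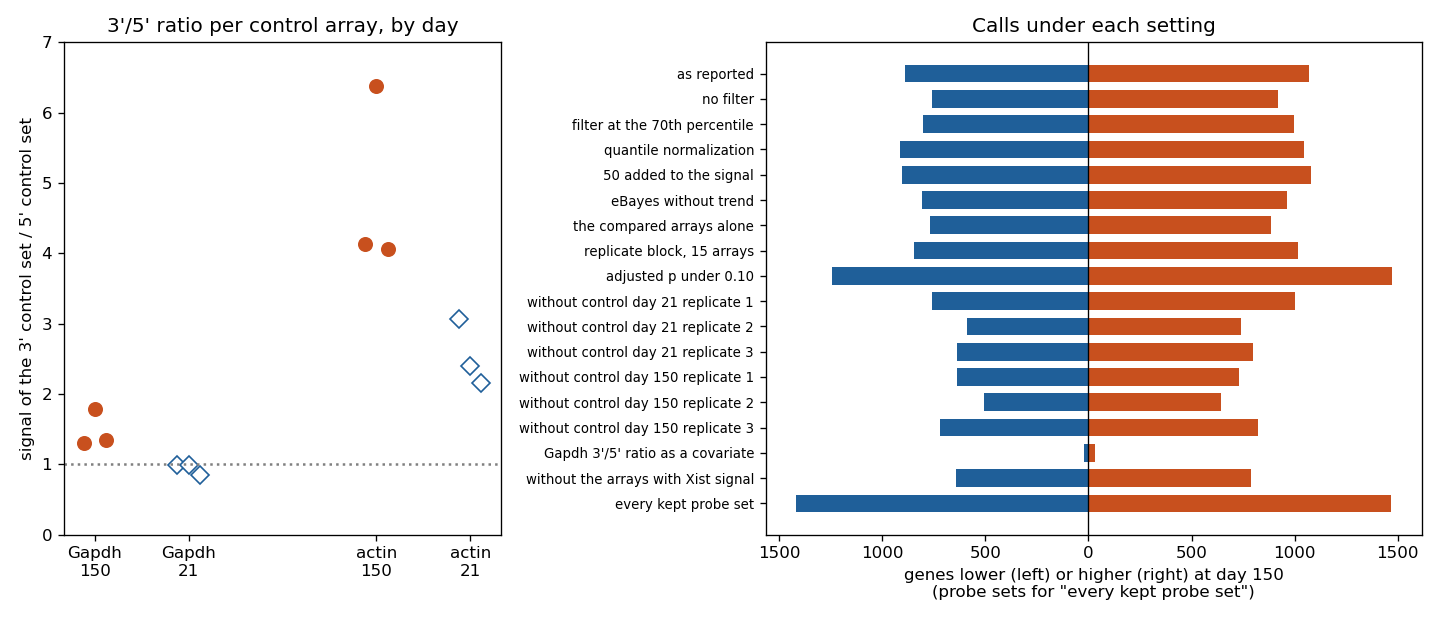
Left, the ratio of 3′ to 5′ control probe sets of Gapdh and beta-actin on each control array, day 150 (filled) and day 21 (open); right, genes higher (right bars) or lower (left bars) at day 150 under each setting tried. All day 150 ratios lie above all day 21 ratios, and the counts lie between 643 and 1473 for rises and between 508 and 1420 for falls except with the Gapdh ratio in the fit, where they are 33 and 19.

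The largest changes were those of single enzymes, receptors and secreted proteins. Sult2a2, a sulfotransferase of hydroxysteroids and bile acids, had signals of 39.2, 3 and 68.9 at day 150, against 17938, 18255 and 19291 at day 21. The day 150 signals lie around 57.5, the mean level below which genes were not tested, so its fall (-9.85 ± 0.91, adjusted p = 7.9e-07) is imprecise in size. Elovl3, an elongase of long fatty acids, had signals of 11865, 20959 and 17074 at day 150, against 615.6, 301.8 and 272.1 at day 21, and rose (5.45 ± 0.41, adjusted p = 1.2e-07). No array of one age overlapped those of the other for either gene. Lepr, the leptin receptor, had 144.0, 160.8 and 98.5 at day 150, against 2436, 1757 and 2491 at day 21, and fell (-4.06 ± 0.50, adjusted p = 2.5e-05). Tff3, a secreted trefoil peptide, had 220.5, 153.0 and 116.4 at day 150, against 4232, 8950.4 and 4686 at day 21, and fell (-5.15 ± 0.41, adjusted p = 1.5e-07). Psat1, an enzyme of serine synthesis, had 35.8, 50.5 and 67.8 at day 150, against 898.4, 971.5 and 876.1 at day 21, and fell (-4.20 ± 0.34, adjusted p = 1.7e-07). The highest day 150 array was far below the lowest day 21 array for each of the 3.

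Among the 15 largest rises were 6 of the male-biased genes described next, and Obp2a, an odorant-binding lipocalin (5.28 ± 0.58, adjusted p = 6.1e-06), Cyp46a1, the cholesterol 24-hydroxylase (4.54 ± 0.52, adjusted p = 1e-05), Nat8, an N-acetyltransferase (4.39 ± 0.36, adjusted p = 2.2e-07), Nox4, an oxidase that makes hydrogen peroxide (3.86 ± 0.26, adjusted p = 3.7e-08), Clec2h, a C-type lectin (3.57 ± 0.40, adjusted p = 8.9e-06), and Olfm3, an olfactomedin (3.46 ± 0.32, adjusted p = 8.1e-07). Ubd, a ubiquitin-like protein induced by interferon gamma, varied widely within day 150, with signals of 1171, 138.3 and 542.4 at day 150, against 26.2, 53.7 and 52.9 at day 21 (3.40 ± 0.77, adjusted p = 0.0052). The day 21 signals of Cyp46a1, Obp2a and Ubd lie below 57.5 on all 3 arrays and those of Olfm3 on 2, so the sizes of these rises are imprecise. Among the 15 largest falls were the sulfotransferases Sult3a1 (-4.85 ± 0.73, adjusted p = 0.00019) and Sult1e1, which inactivates oestrogens (-4.83 ± 0.96, adjusted p = 0.0021), Bex4 of the X-linked Bex family (-4.46 ± 0.52, adjusted p = 1.3e-05), Slc39a5, a zinc importer (-3.67 ± 0.72, adjusted p = 0.002), and Akr1c18, a 20-alpha-hydroxysteroid dehydrogenase (-3.89 ± 0.68, adjusted p = 0.00074). Slc22a27, an organic anion carrier, rested on a single array: its signals were 126.9, 7.2 and 207.9 at day 150, against 998.3, 779.3 and 639.2 at day 21 (-3.78 ± 0.97, adjusted p = 0.011). Without day 150 replicate 2 its change was -2.29 (adjusted p = 0.065), and with the Gapdh ratio in the fit it was 0.50. Near-identical copies of the Sult2a, Cyp3a, Mup and Saa genes can share probes, so their signals may come from more than one member.

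**Figure D2:**
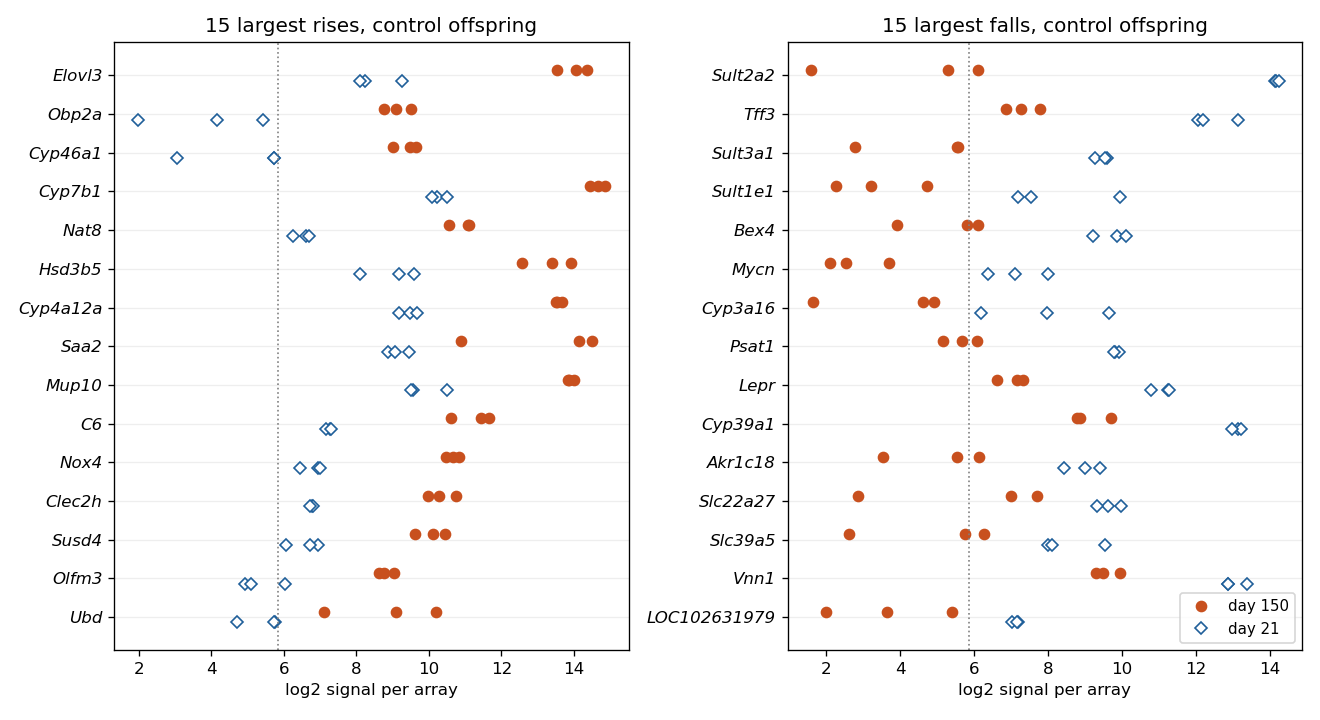
log2 signal on each control array of the 15 genes with the largest rise (left) and the 15 with the largest fall (right) among those that passed and whose groups do not overlap, day 150 as filled circles and day 21 as open diamonds; the dotted line is the filter level, a signal of 57.5. For 11 of the 15 falls at least 1 day 150 array lies below the line, Sult2a2 has the widest gap, and Saa2 and Ubd have the widest spread at day 150 among the rises.

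Male-biased liver genes rose as a group. These are transcripts that growth hormone bursts keep high in adult male mice, and of 21 tested 17 rose and 0 fell, with a median log2 change of 1.47 beside 0.02 for all genes and a 9.70% share of rises. Their summed signal ran from 265692 to 348840.0 at day 150, against 154184 to 175014 at day 21. Cyp7b1, the oxysterol 7-alpha-hydroxylase, had signals of 22295, 29874 and 25934 at day 150, against 1190.0, 1079 and 1436 at day 21, and rose (4.40 ± 0.16, adjusted p = 2e-12). Cyp4a12a, which hydroxylates arachidonic acid, had 11857, 11636 and 13017 at day 150, against 580.1, 710.4 and 814.1 at day 21 (4.13 ± 0.31, adjusted p = 1.1e-07). Hsd3b5, a steroid-reducing enzyme of male liver, had 6032, 15517 and 10797 at day 150, against 578.6, 274.6 and 771.4 at day 21 (4.34 ± 0.42, adjusted p = 1.6e-06). In each of these the lowest day 150 array was several times the highest day 21 array. C6, a component of the complement pore, had 1559.8, 3212 and 2793 at day 150, against 154.0, 142.6 and 158.7 at day 21 (3.99 ± 0.23, adjusted p = 4.4e-09), and Susd4, a complement regulator, had 1104, 1389 and 789.1 at day 150, against 122.9, 66.2 and 105.0 at day 21 (3.49 ± 0.28, adjusted p = 1.7e-07). The members that did not pass were Slco1a1 (0.37), Cyp2d9 (0.32), Gstp1 (0.14) and Mup3 (-0.40). With the Gapdh ratio in the fit 7 of the 21 rose, with a median of 1.0.

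The major urinary proteins, pheromone carriers made in liver, are also male-biased. Of the 3 with a probe set of one symbol above the filter 2 rose. Mup10 had signals of 14596, 14824 and 16382 at day 150, against 755.9, 723.6 and 1461 at day 21 (4.04 ± 0.36, adjusted p = 5.7e-07), and Mup5 had 1273, 1434 and 1349 at day 150, against 343.6, 42.8 and 217.9 at day 21 (3.20 ± 0.48, adjusted p = 0.00019). Mup3, with 14258, 17098 and 19034 at day 150, against 24295, 17111 and 25716 at day 21, did not pass (-0.40 ± 0.29, adjusted p = 0.38), and its groups overlap. Of the 3, Mup5 and Mup10 had every day 150 array above every day 21 array.

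Female-biased liver genes moved the other way. Of 24 tested, 17 fell and 1 rose, with a median of -2.08, beside an 8.08% share of falls among all genes. Cyp39a1, which hydroxylates 24-hydroxycholesterol, had 466.6, 440.0 and 825.6 at day 150, against 8964, 9526 and 8016 at day 21 (-3.99 ± 0.37, adjusted p = 7.9e-07). Cyp3a44, a P450 of female liver, had 89.9, 68.1 and 586.2 at day 150, against 1711, 1232 and 997.4 at day 21 (-3.06 ± 0.57, adjusted p = 0.0013), and Cyp3a16, a P450 of young liver, had 30.1, 24.6 and 3.1 at day 150, against 797.2, 252.3 and 73.3 at day 21 (-4.22 ± 0.86, adjusted p = 0.0025). Cyp3a16 lay below the filter level on all 3 day 150 arrays, and Cyp39a1 had the tightest groups of the 3. Tox, a nuclear protein, had 59.3, 58.3 and 14 at day 150, against 218.5, 230.9 and 151.1 at day 21 (-2.43 ± 0.44, adjusted p = 0.00096). Abcd2, a peroxisomal carrier of fatty acids (-2.23 ± 0.42, adjusted p = 0.0013), Fmo2, a flavin monooxygenase (-2.08 ± 0.44, adjusted p = 0.0031), and Cyp17a1, a steroid hydroxylase (-3.37 ± 0.74, adjusted p = 0.0045), fell as well. The 1 member that rose was Lifr, the receptor of leukaemia inhibitory factor (0.84 ± 0.21, adjusted p = 0.01), with an adjusted p of 0.055 without day 150 replicate 2 and 0.057 without day 21 replicate 3. When 1 control array was left out, 12 to 16 members fell, with 12 if replicate 2 of either age was dropped. Without the 2 arrays with Xist signal, 1 of which is a day 21 control array, 15 members fell. Sult3a1 was 6.8, 46.5 and 46.9 at day 150, against 778.4, 614.7 and 747.6 at day 21, and it also passed without that day 21 array. When the Gapdh ratio was added to the fit, 1 of the 24 fell, with a median of -1.15.

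**Figure D3:**
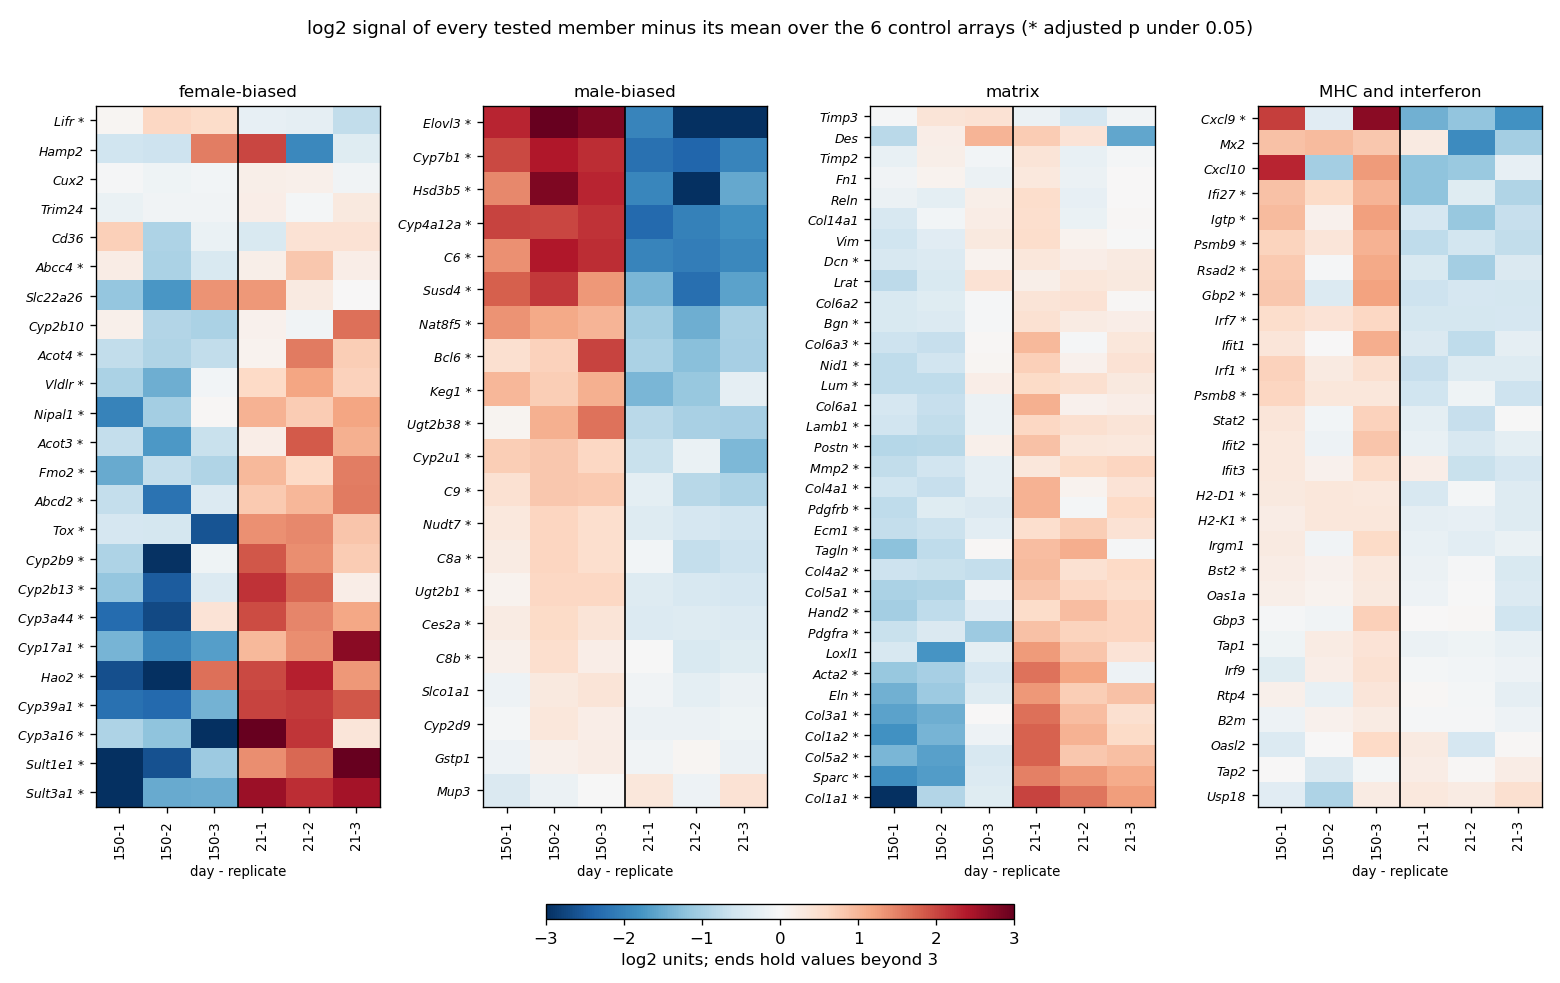
log2 signal of every tested member of 4 lists minus its mean over the 6 control arrays, with the day 150 arrays left of the line and the day 21 arrays right of it; a star marks members that passed, and colours end at 3 log2 units. Of 24 female-biased genes 17 fell, of 21 male-biased genes 17 rose, of 34 matrix genes 23 fell and of 28 MHC and interferon genes 12 rose.

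The growth hormone receptor pathway itself changed less. Ghr, the growth hormone receptor, had 21005, 24151 and 23919 at day 150, against 19098, 13169 and 13687 at day 21 (0.61 ± 0.15, adjusted p = 0.011), with an adjusted p of 0.061 without day 21 replicate 2 and 0.051 without day 21 replicate 3. Jak2, the kinase bound to that receptor, had 1080.3, 1019 and 992.8 at day 150, against 717.3, 549.8 and 702.6 at day 21 (0.66 ± 0.12, adjusted p = 0.001), but its other kept probe set changed in the opposite direction. Igf1, the circulating growth factor, had 16788, 20022 and 20572 at day 150, against 18248, 16374 and 14702 at day 21 and did not pass (0.22 ± 0.13, adjusted p = 0.29). Bcl6, a repressor that opposes Stat5 at female-biased genes in mice, had 1061, 1236 and 3109 at day 150, against 397.0, 322.6 and 381.0 at day 21 (2.13 ± 0.55, adjusted p = 0.012). Its highest signal came from day 150 replicate 3, and without that array the change was 1.65 (adjusted p = 0.066). Bcl6 is also among the male-biased genes counted above. Of the 14 pathway genes tested 4 rose (Ghr, Jak2, Bcl6 and Igfals) and 3 fell, and all 3 falls were binding proteins of the insulin-like growth factors. Igfbp1 had 6606, 11746 and 18573 at day 150, against 35362, 29726 and 38119 at day 21 (-1.60 ± 0.33, adjusted p = 0.0027), Igfbp3 had 498.3, 634.7 and 1027 at day 150, against 1920.2, 1786 and 1696 at day 21 (-1.39 ± 0.20, adjusted p = 0.0001), and Igfbp2 fell as well (-0.72 ± 0.16, adjusted p = 0.005). Igfals, a partner of Igf1 and Igfbp3 in blood, had a change of 0.51 ± 0.17, adjusted p = 0.05, and lost its call without any one control array but day 21 replicate 1, with adjusted p up to 0.22 without day 21 replicate 3. The count of rises was 2 without day 21 replicate 2, day 21 replicate 3 or day 150 replicate 3.

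Fetal and growth genes were lower at day 150. Afp, the fetal serum protein, had 120.6, 89.8 and 72.4 at day 150, against 526.6, 466.3 and 504.2 at day 21 (-2.43 ± 0.29, adjusted p = 2e-05), and its 2 other kept probe sets fell in sign as well. Gpc3, a cell surface proteoglycan of fetal liver, had 23.1, 48.8 and 11.5 at day 150, against 231.5, 142.8 and 219.6 at day 21 (-3.04 ± 0.47, adjusted p = 0.00026). Igf2bp3, a fetal RNA-binding protein, had 199.5, 214.6 and 313.0 at day 150, against 469.4, 811.0 and 1013 at day 21 (-1.62 ± 0.23, adjusted p = 0.00012). All 3 had groups that do not overlap. Lpl, a lipase made by newborn but little by adult liver, had 2306, 2436 and 5878 at day 150, against 17925, 17572 and 18812 at day 21 (-2.50 ± 0.28, adjusted p = 6.6e-06). In mice the zinc finger protein Zbtb20 represses Afp after birth. Zbtb20 had 2640.0, 3548 and 3507 at day 150, against 1682, 831.4 and 2039 at day 21, and rose (1.18 ± 0.27, adjusted p = 0.0054), as did all 8 of its other kept probe sets in sign. Of 13 oncofetal genes tested 6 fell and 1 rose, with a median of -0.53. In the fit with the Gapdh ratio, 0 passed and the median was -0.91.

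The imprinted growth genes, of which only the copy from one parent is active, fell in part. Of 13 tested 7 fell and 1 rose, with a median of -0.73, and 2 of the 13 changes were positive. Dcn, among the 7, is also counted with the matrix genes below. Sgce, a sarcoglycan, had 138.1, 88.4 and 130.9 at day 150, against 471.3, 586.8 and 421.8 at day 21 (-2.06 ± 0.22, adjusted p = 5.2e-06). Peg3, a zinc finger protein, had 593.5, 846.7 and 640.7 at day 150, against 1748, 1411 and 1938 at day 21 (-1.30 ± 0.28, adjusted p = 0.0039). Bex1, an X-linked gene counted with this network, had 56.2, 49.3 and 51.9 at day 150, against 370.7, 428.1 and 481.3 at day 21 (-3.02 ± 0.50, adjusted p = 0.00042). Grb10, an adaptor that restrains insulin and growth factor receptors, changed by -1.08 ± 0.25, adjusted p = 0.0071. The member that rose was Meg3, a maternally expressed noncoding RNA, with 520.6, 841.1 and 640.8 at day 150, against 128.3, 152.1 and 218.3 at day 21 (2.01 ± 0.28, adjusted p = 8.1e-05) and all 7 other kept probe sets higher. The 7 falls were 4 without day 150 replicate 1, and 0 members passed with the Gapdh ratio in the fit, where the median was -0.61. Igf2, H19 and Dlk1 were below the filter and not tested.

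Of 23 cell cycle genes tested, 3 fell and 0 rose, beside 8.08% and 9.70% of all genes, with a median of -0.17. Pcna, the clamp of the DNA polymerases, had 2031, 1726 and 2153 at day 150, against 2987, 3824 and 3005 at day 21 (-0.73 ± 0.18, adjusted p = 0.0088). Mcm6, of the helicase that opens replication origins, had 141.5, 87.5 and 170.1 at day 150, against 692.5, 275.0 and 302.6 at day 21 (-1.59 ± 0.39, adjusted p = 0.0089), and Ccnd1, a cyclin of the first growth phase, changed by -0.68 ± 0.21, adjusted p = 0.029. Without day 150 replicate 2 only 1 of the 23 fell, and the change of Mcm6 was -1.32 (adjusted p = 0.055). Ccnd1 lost its call without any one of day 150 replicates 1 and 2 and day 21 replicates 1 and 2, with adjusted p up to 0.15, without day 21 replicate 1. Mki67, a marker of dividing cells, had 41.8, 60.0 and 288.5 at day 150, against 106.1, 19.4 and 31.8 at day 21 and did not pass (1.16 ± 0.69, adjusted p = 0.27). The promoters of Pcna and Mcm6 are shown because the CCAAT box is the motif of many cell cycle genes; capitals mark CCAAT on either strand. Both come from RefSeq on GRCm38.p6, minus strand, 250 bases before to 50 after the gene start, chr2:132253131-132253430 for Pcna and chr1:128359656-128359955 for Mcm6.
Pcna: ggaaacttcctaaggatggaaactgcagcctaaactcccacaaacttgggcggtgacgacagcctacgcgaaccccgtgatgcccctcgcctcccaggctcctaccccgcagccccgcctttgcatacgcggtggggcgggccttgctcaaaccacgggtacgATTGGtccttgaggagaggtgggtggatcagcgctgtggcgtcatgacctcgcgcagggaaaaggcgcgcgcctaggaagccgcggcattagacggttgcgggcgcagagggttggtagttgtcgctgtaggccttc
Mcm6: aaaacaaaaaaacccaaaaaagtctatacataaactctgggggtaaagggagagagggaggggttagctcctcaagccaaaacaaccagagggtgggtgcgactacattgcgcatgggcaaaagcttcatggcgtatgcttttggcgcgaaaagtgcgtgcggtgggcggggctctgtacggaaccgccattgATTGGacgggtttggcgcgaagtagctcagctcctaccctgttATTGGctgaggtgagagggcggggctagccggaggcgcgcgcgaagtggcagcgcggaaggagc
Pcna holds 1 match and Mcm6 holds 2. The CCAAT box occurs in 37.4% of all 32851 promoters of the table, and of the 18 tested cell cycle genes with an entry 16 hold it. Neither promoter has the other motif searched, TTTGAA, which is in 17.9% of the table and in 9 of those 18 genes. A gene was counted if any of its promoters held the motif, while the shares of the table count single promoters.

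Genes of matrix and of hepatic stellate cells, the vitamin A storing cells that make most liver collagen, fell together. Of 34 tested 23 fell and 0 rose, with a median of -1.03. Their summed signal was 34741 to 46494 at day 150, against 56932 to 76386 at day 21. In whole liver, fewer cells of a type and less RNA per cell cannot be told apart. Sparc, a matrix protein of growing tissue, had 557.9, 622.8 and 1508 at day 150, against 5737, 4916 and 4331 at day 21 (-2.62 ± 0.27, adjusted p = 2.6e-06). Col1a2, a chain of fibrillar collagen, had 217.5, 292.8 and 695.2 at day 150, against 2605, 1571 and 1137 at day 21 (-2.24 ± 0.39, adjusted p = 0.0008). Col3a1, the second main fibrillar collagen, had 866.0, 951.7 and 2642 at day 150, against 8276, 5020.0 and 3702 at day 21 (-2.05 ± 0.34, adjusted p = 0.00051). For these 3 genes day 150 replicate 3 was the highest of the day 150 arrays and nearest to day 21. Pdgfra, a growth factor receptor of these cells, had 145.4, 173.2 and 108.8 at day 150, against 429.3, 367.9 and 364.7 at day 21 (-1.46 ± 0.23, adjusted p = 0.00028). Col1a1, the partner of Col1a2, had 3.8, 26.1 and 37.4 at day 150, against 196.4, 144.8 and 113.3 at day 21, and also fell (-3.25 ± 0.66, adjusted p = 0.0026), as did Acta2 of activated stellate cells (-1.76 ± 0.39, adjusted p = 0.0047). Markers of the stellate cell itself were mixed: Hand2 (-1.41), a transcription factor of these cells, and the receptor Pdgfrb (-1.05) fell like Pdgfra, while Lrat, which esterifies vitamin A, was -0.54, Reln was -0.19 and Des was 0.26, and these 3 did not pass. Leaving out 1 control array gave 16 to 24 falls, the fewest without day 150 replicate 1 and the most without day 150 replicate 3. After the Gapdh ratio entered the fit, 1 of the 34 fell, with a median of -0.93.

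Col4a1 and Col4a2, the basement membrane collagen chains, lie head to head and fell together. Col4a1 had 874.5, 823.2 and 1105 at day 150, against 2750.5, 1427 and 1779.8 at day 21 (-1.04 ± 0.20, adjusted p = 0.0015), and Col4a2 had 313.9, 303.4 and 293.1 at day 150, against 928.1, 662.4 and 729.4 at day 21 (-1.34 ± 0.20, adjusted p = 0.00019). The stretch shared by their promoter windows is shown because the same DNA falls in the windows of both genes. Each window also reaches past its gene start, so the stretch may lie within the first bases of the genes rather than before them. The stretch is chr8:11312777-11312854 on GRCm38.p6, 78 bases, read on the plus strand, the strand of Col4a2.
Col4a1 and Col4a2: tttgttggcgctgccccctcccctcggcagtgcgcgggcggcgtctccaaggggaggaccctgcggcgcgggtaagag
Of the markers of endothelial cells, which line the sinusoids, 4 of 29 tested fell and 0 rose, against 8.08% of all genes. Plvap, a diaphragm protein of vessels, had 491.9, 697.6 and 636.7 at day 150, against 1217, 1348 and 949.3 at day 21 (-0.94 ± 0.17, adjusted p = 0.0011), and Lyve1, a hyaluronan receptor, had 227.9, 289.9 and 428.6 at day 150, against 879.5, 812.8 and 1000.5 at day 21 (-1.55 ± 0.32, adjusted p = 0.003). The 4 falls were 2 without day 21 replicate 1 or day 150 replicate 1. Pecam1, which marks the cells themselves, did not pass (-0.31).

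Fatty acid oxidation genes, many of them targets of the nuclear receptor Ppara, fell in part. Of 36 tested 19 fell and 0 rose, with a median of -0.57, and 33 of the 36 changes were negative. Vnn1, a pantetheinase and Ppara target, had 990.7, 633.2 and 716.8 at day 150, against 7446, 10742 and 7408 at day 21 (-3.45 ± 0.30, adjusted p = 3.6e-07). Fgf21, the fasting hormone of liver, had 109.1, 87.4 and 165.7 at day 150, against 269.0, 1216 and 696.8 at day 21 (-2.39 ± 0.48, adjusted p = 0.0023). Acot2, a mitochondrial thioesterase, had 866.0, 756.1 and 802.1 at day 150, against 1583, 4011 and 2572 at day 21 (-1.65 ± 0.24, adjusted p = 0.00012). The 3 genes were lower on every day 150 array than on any day 21 array. The core enzymes moved by smaller steps: Etfdh, which passes electrons from fatty acid oxidation to ubiquinone, had 9921, 9368 and 10251 at day 150, against 15958, 17826 and 15936 at day 21 (-0.75 ± 0.11, adjusted p = 0.00013), and Hadha, of the trifunctional protein, changed by -0.63 ± 0.11, adjusted p = 0.001. Acadl (-0.64) and Eci1 (-0.74), which act within the oxidation cycle, also fell. Acot4, another of the falls, is also counted as female-biased. Ppara itself (-0.41) and Cpt1a, the entry step of mitochondrial oxidation (-0.40), did not pass. The summed signal was 375573 to 412191 at day 150, against 481052 to 568096 at day 21. With the Gapdh ratio in the fit 1 of the 36 fell, with a median of -0.58.

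Glucose output and glucose use genes were also lower in part. Of 16 gluconeogenesis and glycogen genes tested 5 fell and 0 rose. Gys2, liver glycogen synthase, had 1651, 1559 and 2075 at day 150, against 3867, 3365 and 4606 at day 21 (-1.16 ± 0.16, adjusted p = 0.0001), and Slc37a4, which carries glucose 6-phosphate to its phosphatase, had 4432, 5750.2 and 4496 at day 150, against 8127, 9056 and 9199.5 at day 21 (-0.85 ± 0.14, adjusted p = 0.00044). Pck1, the entry enzyme of gluconeogenesis, had 16307, 20362 and 20314 at day 150, against 20528, 17795 and 21885 at day 21 and did not pass (-0.08 ± 0.19, adjusted p = 0.82). Of 18 genes of glucose use 6 fell and 2 rose; Pklr, liver pyruvate kinase, had 1142, 945.7 and 1207 at day 150, against 5147, 2405 and 2848 at day 21 (-1.59 ± 0.34, adjusted p = 0.0037), and Gpd1, a glycerol 3-phosphate dehydrogenase, had 2122, 1684 and 1976 at day 150, against 4412, 4563 and 4586 at day 21 (-1.24 ± 0.18, adjusted p = 0.00015), with 1 of its 2 other kept probe sets of the same sign. The 2 rises were 1 when any one of 5 control arrays was left out, all but day 21 replicate 3. Falls thus occurred on both sides of glucose flow.

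Targets of the amino acid stress factor ATF4 fell in part. Of 17 tested 6 fell and 0 rose, with a median of -0.61. Besides Psat1, these included Slc3a2, the shared chain of several amino acid carriers, with 1039, 1030.5 and 682.0 at day 150, against 2454, 3366 and 2771 at day 21 (-1.66 ± 0.22, adjusted p = 4.8e-05), and Asns, asparagine synthetase, with 362.4, 146.3 and 122.1 at day 150, against 628.3, 956.5 and 682.1 at day 21 (-1.99 ± 0.43, adjusted p = 0.004). Day 150 replicate 1 had the highest Asns signal of its age. Of the 6 falls, Fgf21 is also counted with fatty acid oxidation and Vldlr with the female-biased genes. When the Gapdh ratio was added to the fit, 1 of the 17 fell, with a median of -0.57. Of 13 genes of the urea cycle and ammonia disposal 3 fell (23.1%) and 0 rose, beside 8.08% and 9.70% of all genes, with a median of -0.10. The 3 were Rhbg, Slc25a13 and Glul, and 2 to 3 fell when 1 control array was left out. Rhbg and Glul are also on the list of central vein genes below. Cps1, the entry enzyme of the cycle, had 31403, 37576 and 38368 at day 150, against 32388, 27256 and 31905 at day 21 and did not pass (0.23 ± 0.15, adjusted p = 0.33).

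Oxysterol and bile acid enzymes changed in both directions. Of 22 tested 3 rose (13.6%) and 4 fell (18.2%), beside 9.70% and 8.08% of all genes. Cyp46a1, which turns cholesterol into 24-hydroxycholesterol, had 798.8, 710.5 and 516.5 at day 150, against 8.3, 53.2 and 52.5 at day 21, while Cyp39a1, which hydroxylates that product, was lower as given above. Cyp7a1, the rate-limiting enzyme of the classical route, had 1449, 1752 and 1187 at day 150, against 1938, 1586 and 2244 at day 21 and did not pass (-0.40 ± 0.44, adjusted p = 0.59), nor did Cyp8b1 (0.45), which sets the share of cholic acid. Akr1d1, a reductase of bile acid synthesis, had 2406, 2217 and 2447 at day 150, against 4033, 3742 and 4557 at day 21 (-0.80 ± 0.16, adjusted p = 0.0027), and Klb, the co-receptor for Fgf21 and Fgf15, had 1209.7, 1297 and 1375 at day 150, against 1839, 1859.7 and 2226 at day 21 (-0.61 ± 0.11, adjusted p = 0.001). Changes above 4-fold in this list were those of Cyp46a1, Cyp7b1 and Cyp39a1, all oxysterol or cholesterol hydroxylases.

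Enzymes that conjugate drugs and hormones also split. Of 35 tested 7 rose (20.0%) and 5 fell (14.3%), beside 9.70% and 8.08% of all genes. Ugt3a1, a sugar transferase, had 3979.7, 4204 and 3007 at day 150, against 715.6, 1037 and 902.2 at day 21 (2.08 ± 0.19, adjusted p = 5.7e-07), and Sult5a1, a sulfotransferase, had 650.2, 733.1 and 565.5 at day 150, against 160.4, 132.2 and 180.7 at day 21 (2.05 ± 0.21, adjusted p = 2.6e-06). Ugt2a3, a glucuronosyltransferase, had 8865, 10696 and 9575 at day 150, against 3888, 3101 and 3616 at day 21 (1.46 ± 0.16, adjusted p = 4.9e-06). Sult1d1, a sulfotransferase of catecholamines, moved the other way, with 4831, 5058 and 4788 at day 150, against 9493, 9646 and 12691 at day 21 (-1.10 ± 0.23, adjusted p = 0.0029). The 5 falls were 3 without day 21 replicate 3 or day 150 replicate 2. Of 37 oxidising (phase 1) enzymes and their regulators 8 fell (21.6%) and 3 rose (8.11%, below the share of all genes), and the falls were 5 without day 150 replicate 2. Cyp2c39, a retinoic acid hydroxylase, had 2687, 1137 and 2960.3 at day 150, against 8372, 8925 and 10774 at day 21 (-2.16 ± 0.32, adjusted p = 0.00015), and Fmo1, a flavin monooxygenase, had 4526, 4117 and 3932 at day 150, against 7864, 8842 and 8301 at day 21 (-0.99 ± 0.14, adjusted p = 8.7e-05). Of the 5 members of the conjugating list that fell 4 are sulfotransferases, and Sult2a2, which is not on that list, fell as given above. Some calls repeat those of the sex-biased lists. Among the falls of these enzymes, Cyp3a44, Cyp3a16, Fmo2, Cyp2b9, Sult3a1 and Sult1e1 are also counted as female-biased. Among their rises, Cyp2u1, Ugt2b1 and Ugt2b38 are also counted as male-biased.

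Antigen presentation and interferon genes rose in part. Of 28 genes of MHC class I presentation and interferon response tested 12 rose and 0 fell, with a median of 0.65. Ifi27, an interferon-induced mitochondrial protein, had 4643, 3773 and 5116 at day 150, against 1092, 1978 and 1358 at day 21 (1.64 ± 0.19, adjusted p = 1.2e-05). Irf7 and Irf1, factors that switch on interferon genes, had 483.3, 448.4 and 517.7 and 1769, 1332 and 1545 at day 150, against 233.0, 233.6 and 237.4 and 679.1, 846.6 and 841.1 at day 21, with changes of 1.04 ± 0.18, adjusted p = 0.00071 and 0.97 ± 0.18, adjusted p = 0.00097. The day 21 arrays differed little among themselves in Irf7, and all 3 genes had groups that do not overlap. In the fit with the Gapdh ratio, 1 of the 28 rose, with a median of 0.80. Igtp, a GTPase of cell defence (1.54 ± 0.28, adjusted p = 0.0012), Cxcl9, a chemokine for T cells (2.96 ± 0.55, adjusted p = 0.0012), and the presenting molecules H2-D1 (0.62 ± 0.13, adjusted p = 0.0028) and H2-K1 (0.60 ± 0.14, adjusted p = 0.0074) rose as well.

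Promoters of a pair of genes of this list are shown because they hold the interferon-stimulated response element, searched as GAAA followed after 2 bases by GAAA. Both were chosen after their values were seen. Bst2, which tethers budding viruses, had 6515, 6133 and 6978 at day 150, against 4966, 5445 and 4065 at day 21 (0.45 ± 0.14, adjusted p = 0.039). Gbp2, a guanylate-binding protein of cell defence, had 564.7, 241.8 and 742.5 at day 150, against 208.6, 227.3 and 223.5 at day 21 (1.09 ± 0.33, adjusted p = 0.03). Bst2 lost its call when any control array but day 21 replicate 2 was left out (adjusted p up to 0.17, without day 21 replicate 3). Gbp2 passed only without day 150 replicate 2, its lowest day 150 array, or with all arrays; its adjusted p was up to 0.16, without day 150 replicate 3. The RefSeq promoters on GRCm38.p6 are chr8:71537423-71537722, minus strand, for Bst2 and chr3:142620413-142620712, plus strand, for Gbp2; capitals mark this element on either strand, with 2 overlapping matches in Bst2.
Bst2: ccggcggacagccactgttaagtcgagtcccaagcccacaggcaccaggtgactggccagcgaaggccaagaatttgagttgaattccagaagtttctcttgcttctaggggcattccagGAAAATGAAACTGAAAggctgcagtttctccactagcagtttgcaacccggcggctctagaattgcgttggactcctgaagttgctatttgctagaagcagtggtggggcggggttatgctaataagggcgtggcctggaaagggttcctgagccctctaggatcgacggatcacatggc
Gbp2: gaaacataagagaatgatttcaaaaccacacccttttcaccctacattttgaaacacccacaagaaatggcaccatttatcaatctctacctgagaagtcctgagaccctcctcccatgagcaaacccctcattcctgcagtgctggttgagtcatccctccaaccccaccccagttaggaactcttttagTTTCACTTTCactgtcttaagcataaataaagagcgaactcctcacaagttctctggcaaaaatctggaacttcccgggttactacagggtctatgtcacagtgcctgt
The motif is in 3.44% of all 32851 promoters. It is in 4 of the 11 genes of the list that rose and have an entry, and in 8 of the 12 that did not rise and have one. Here too a gene was counted if any of its promoters held the motif.

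Some markers of immune cells of the liver were also higher, those of MHC class II, macrophages and secreted antibodies (Jchain and Igha). T and NK cell and neutrophil markers had none that passed, as given above. All 6 MHC class II genes tested changed upward in sign and 4 rose, and their summed signal was 2354 to 3652 at day 150, against 1166 to 1237 at day 21. The 4 rises were 3 when any control array but day 150 replicate 2 was left out. H2-Aa, a chain of the class II molecule, had 1071, 994.7 and 1501 at day 150, against 321.7, 366.9 and 423.3 at day 21 (1.67 ± 0.23, adjusted p = 7.2e-05). Jchain, the joining chain of secreted antibodies, had 213.0, 382.2 and 448.8 at day 150, against 63.3, 65.2 and 54.9 at day 21 (2.44 ± 0.31, adjusted p = 3.7e-05). Of 7 genes of B and plasma cells 2 rose (28.6%, beside 9.70% of all genes), Jchain and Igha, an antibody chain. The other members tested, Ighm, Cd79b, Ms4a1, Cd22 and Mzb1, did not pass. The 2 rises were 1 without day 21 replicate 2 or without day 150 replicate 2. Of 25 genes of Kupffer cells, the resident macrophages, 5 rose (20.0%) and 0 fell, with 24 changes positive and a median of 0.35. Cd5l, a secreted macrophage protein, had 5272, 5295 and 7273 at day 150, against 2505, 2736 and 2308 at day 21 (1.23 ± 0.18, adjusted p = 0.00019), and Mpeg1, a pore protein of phagocytes, had 2517, 2286 and 3453 at day 150, against 1200.5, 972.0 and 1139.7 at day 21 (1.30 ± 0.17, adjusted p = 5.8e-05). Of the genes that define these cells Clec4f rose (0.58 ± 0.17, adjusted p = 0.022), and Adgre1 (0.55), Timd4 (0.29), Vsig4 (0.25) and C1qa (0.18) did not pass. Clec4f had adjusted p of 0.075, 0.084 and 0.11 without day 150 replicate 2, day 150 replicate 3 and day 21 replicate 3. The 5 rises were 3 without day 21 replicate 3, day 150 replicate 2 or day 150 replicate 3. With the Gapdh ratio in the fit 0 members of the MHC class II, B and plasma cell and Kupffer cell lists passed. Their medians were then 1.63, -0.009 and 0.083 in that order, against 1.11, 0.89 and 0.35 without it. The part of these immune cells in the rise of the interferon genes was not tested.

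The proteasome, which breaks down proteins and supplies peptides to MHC class I, changed in both directions. Of 35 genes tested 14 fell (40.0%) and 2 rose (5.71%), beside 8.08% and 9.70% of all genes. The 2 were Psmb8 and Psmb9, a pair of interferon-induced catalytic subunits of the immunoproteasome: Psmb9 had 1025, 827.7 and 1331 at day 150, against 380.4, 440.1 and 385.3 at day 21 (1.38 ± 0.21, adjusted p = 0.00018), and Psmb8 had 1747, 1416 and 1405 at day 150, against 734.4, 1025 and 722.4 at day 21 (0.89 ± 0.21, adjusted p = 0.0073). Both also rose when any one control array was left out, and both are already counted among the interferon genes that rose above. Psmb10, the other catalytic subunit of this kind, had 1735, 1191 and 1237 at day 150, against 1120.1, 1466 and 1246 at day 21 and did not pass (0.11 ± 0.17, adjusted p = 0.71), nor did Psme1 (0.02), of the activator that interferon gamma induces. Psma7, a subunit of the outer ring, had 5770.2, 5846 and 4889 at day 150, against 8145, 9479 and 8973 at day 21 (-0.69 ± 0.13, adjusted p = 0.0017). Psmd7, a subunit of the regulatory lid, had 2207, 1781 and 1669 at day 150, against 3015, 3356 and 3239 at day 21 (-0.77 ± 0.16, adjusted p = 0.0024). The falls were small, with a median over the whole list of -0.26, and their number dropped to between 3 and 7 when any one control array was left out, with 3 without day 150 replicate 2 or 3. After the Gapdh ratio entered the fit, 0 passed, and Psmb9 was 1.56.

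Acute phase and complement proteins, which the liver secretes into blood, changed unevenly. Of 21 acute phase genes tested 6 rose (28.6%) and 3 fell (14.3%), beside 9.70% and 8.08% of all genes. Saa4, a serum amyloid that is made without inflammation, had 19177, 20171 and 14428 at day 150, against 6656, 4389.5 and 4398 at day 21 (1.81 ± 0.22, adjusted p = 1.8e-05), and Orm1, the acid glycoprotein, had 27589.6, 32224 and 27874 at day 150, against 16183, 12898 and 14246 at day 21 (1.02 ± 0.17, adjusted p = 0.0006). Saa1 and Saa2, the inducible serum amyloids, differed between the day 150 pools, with Saa1 at 30428, 27454 and 8177 at day 150, against 2755, 2483 and 1410.2 at day 21 (3.16 ± 0.71, adjusted p = 0.005), and Saa2 at 23342, 18126 and 1890.2 at day 150, against 465.4, 701.2 and 532.5 at day 21 (4.06 ± 1.21, adjusted p = 0.026). Day 150 replicate 3 was the lowest for both. Saa2 kept its call only without that array, with an adjusted p of 0.01, and had 0.11 without day 150 replicate 1, 0.1 without day 150 replicate 2 and 0.063, 0.059 and 0.066 without day 21 replicates 1, 2 and 3. The 3 falls were 0 without day 21 replicate 2 and 1 without day 150 replicate 2 or 3. Of 35 complement and coagulation genes 7 rose and 4 fell: the 7 were all complement components, among them Hc, the mouse C5 gene (1.12 ± 0.17, adjusted p = 0.0002), C2 (0.90 ± 0.15, adjusted p = 0.00058) and C9 (1.37 ± 0.24, adjusted p = 0.00074), and the 4 were the clotting factors F7 (-0.49 ± 0.09, adjusted p = 0.0016), F10 (-0.63 ± 0.12, adjusted p = 0.0015), F11 (-0.76 ± 0.21, adjusted p = 0.018) and F12 (-0.41 ± 0.14, adjusted p = 0.043). These shares were 20.0% and 11.4%, beside 9.70% and 8.08% of all genes. Of the complement components that rose, C6, C8a, C8b and C9 are also among the male-biased genes counted above. The 4 falls were 2 without day 21 replicate 1 or day 150 replicate 1. F11 had adjusted p of 0.088, 0.077 and 0.094 without day 21 replicate 1, day 150 replicate 1 and day 150 replicate 2. F12 passed only when day 150 replicate 2 was the array left out, with 0.079, 0.14, 0.061, 0.17 and 0.085 without the others.

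Chaperones of the cytosol and of the endoplasmic reticulum rose in part. Of 16 heat shock genes tested 8 rose and 1 fell, with a median of 0.40. Hspb1, a small heat shock protein, had 2128, 1855 and 1800.4 at day 150, against 176.5, 218.3 and 195.4 at day 21 (3.29 ± 0.24, adjusted p = 9.9e-08). Hspa1b, an inducible Hsp70 with a near-identical copy in Hspa1a, had 19222, 16576 and 19627 at day 150, against 5369.5, 6018 and 4566 at day 21 (1.80 ± 0.22, adjusted p = 2.3e-05). Hsph1, a partner of Hsp70, changed by 1.33 ± 0.27, adjusted p = 0.0024. The lowest day 150 array of Hspb1 was 8.25 times the highest day 21 array. The member that fell was Hspa4, an Hsp70 relative (-0.44 ± 0.13, adjusted p = 0.022), which lost its call without day 150 replicates 2 or 3 or day 21 replicates 1 or 3. Hspa8 (0.70 ± 0.13, adjusted p = 0.0012) and Hspb8 (0.92 ± 0.18, adjusted p = 0.0017) rose on the probe set used, but 2 of 3 other kept sets of Hspa8 and 1 of 2 of Hspb8 changed in the opposite direction. The 8 rises were 5 without day 21 replicate 2, and 1 with the Gapdh ratio in the fit, where the median was 0.45.

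In the endoplasmic reticulum, 6 of 20 folding genes rose (30.0%, beside 9.70% of all genes) and 0 fell, with 18 changes positive and a median of 0.34. Sdf2l1, a cofactor of the main chaperone, had 4207, 5770.1 and 3290.2 at day 150, against 1779.9, 1717 and 1493 at day 21 (1.38 ± 0.27, adjusted p = 0.0022), and Creld2, a protein induced by stress in this compartment, had 6655, 8743 and 3706 at day 150, against 2929, 2237 and 1920.0 at day 21 (1.37 ± 0.32, adjusted p = 0.0066). Hspa5, the main chaperone BiP, had 28079, 34846 and 30258 at day 150, against 26244, 20139.7 and 22483 at day 21 (0.44 ± 0.14, adjusted p = 0.038). Day 150 replicate 3 was the lowest of its age for Sdf2l1 and Creld2. The 6 rises were 2 without day 21 replicate 2 or day 150 replicate 2, and 0 with the Gapdh ratio in the fit, where the median was 0.23; Hspa5 lost its call without day 21 replicate 2 or 3 or day 150 replicate 2 or 3, with adjusted p of 0.16, 0.093, 0.16 and 0.073. Hspa5 was chosen after its values were seen. The promoters of Hspa5 and Creld2 are shown because they hold the endoplasmic reticulum stress element, searched as CCAAT followed after 9 bases by CCACG; capitals mark it on either strand. They are chr2:34771840-34772139 and chr15:88819396-88819695, both plus strand, from RefSeq on GRCm38.p6.
Hspa5: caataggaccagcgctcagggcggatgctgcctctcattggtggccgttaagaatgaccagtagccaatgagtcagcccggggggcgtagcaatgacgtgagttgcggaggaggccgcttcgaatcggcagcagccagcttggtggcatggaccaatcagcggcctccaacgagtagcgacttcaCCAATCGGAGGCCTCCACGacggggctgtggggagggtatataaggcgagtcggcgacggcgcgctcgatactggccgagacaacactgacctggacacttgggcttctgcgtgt
Creld2: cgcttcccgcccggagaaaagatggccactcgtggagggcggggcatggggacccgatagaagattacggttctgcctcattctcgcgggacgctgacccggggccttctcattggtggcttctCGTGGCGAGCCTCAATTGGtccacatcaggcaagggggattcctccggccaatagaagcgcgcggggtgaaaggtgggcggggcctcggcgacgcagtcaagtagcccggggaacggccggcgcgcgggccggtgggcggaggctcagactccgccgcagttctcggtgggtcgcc
The element is in 39 of 32851 promoters (0.119%). It is in 2 of the 5 genes of the list that rose and have an entry, and in 5 of the 12 that did not rise and have one. Genes were again counted if any of their promoters held the element.

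Genes of the zone around the central vein, where Wnt signals keep a distinct set of hepatocyte transcripts, fell in part. Of 18 tested 7 fell (38.9%) and 0 rose, with a median of -0.45. Their summed signal overlapped between the ages, at 116533 to 141578 at day 150, against 122670 to 138830 at day 21. The members Cyp2e1, Cyp1a2 and Cyp7a1 did not pass. Of 18 genes of the periportal zone 2 fell (11.1%, near the 8.08% of all genes) and 0 rose. Lgr5, a receptor that amplifies Wnt signals, had 127.1, 109.8 and 147.2 at day 150, against 308.0, 268.7 and 275.0 at day 21 (-1.16 ± 0.18, adjusted p = 0.00032). Rhbg, an ammonium carrier, had 350.4, 281.2 and 281.3 at day 150, against 703.0, 852.9 and 595.6 at day 21 (-1.23 ± 0.21, adjusted p = 0.00069). Notum, an extracellular brake on Wnt proteins, had 390.2, 414.5 and 227.1 at day 150, against 611.5, 783.0 and 668.9 at day 21 (-1.04 ± 0.24, adjusted p = 0.0063), and these 3 had groups that do not overlap. The 2 periportal falls were 0 without day 21 replicate 1, day 21 replicate 3 or day 150 replicate 2, and 1 without day 150 replicate 1. With the Gapdh ratio in the fit 0 members of either zone passed.

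The respiratory chain, ribosomal proteins and DNA methylation genes moved little. Of 65 genes of the respiratory chain 2 rose and 6 fell, with a median of -0.02, and of 37 ribosomal protein genes 1 fell and 0 rose (-0.12), beside 9.70% and 8.08% of all genes. The 6 falls of the respiratory chain were 1 without day 150 replicate 2 and 2 without day 150 replicate 3 or day 21 replicate 2, its 2 rises were 1 without day 150 replicate 1 or 2 or day 21 replicate 1 or 3, and the ribosomal fall was 0 without any one control array. Of 10 DNA methylation genes 0 passed in limma, with 3 at an unadjusted p under 0.05, and up to 2 passed when 1 array was left out (day 150 replicate 3); Dnmt1, the maintenance enzyme, was 373.8, 321.7 and 362.2 at day 150, against 483.6, 383.6 and 446.1 at day 21 (-0.31 ± 0.19, adjusted p = 0.28), and Dnmt3a, a de novo enzyme, was 203.4, 279.7 and 363.4 at day 150, against 466.6, 318.4 and 466.5 at day 21 (-0.58 ± 0.22, adjusted p = 0.073). Of 20 genes of cholesterol synthesis 3 rose and 0 fell, and 1 rose without day 21 replicate 3 or without day 150 replicate 1 or 2; Tm7sf2, a sterol reductase, had 7949, 8609 and 9218 at day 150, against 5383, 5182 and 3900.4 at day 21 (0.85 ± 0.17, adjusted p = 0.0022). Scd1, a fatty acid desaturase, had 32959, 40348 and 43262 at day 150, against 37661, 35189 and 33667 at day 21 and did not pass (0.12 ± 0.16, adjusted p = 0.66). Of 5 genes of the Arntl phase of the circadian clock 3 rose (60.0%), and 0 did without day 21 replicate 2 and 1 without day 150 replicate 2 or 3. Nfil3, a clock-controlled repressor, had 2656, 2818 and 2904 at day 150, against 1371, 964.1 and 1375 at day 21 (1.19 ± 0.31, adjusted p = 0.012), and an adjusted p of 0.061 without day 21 replicate 2.

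**Figure D4:**
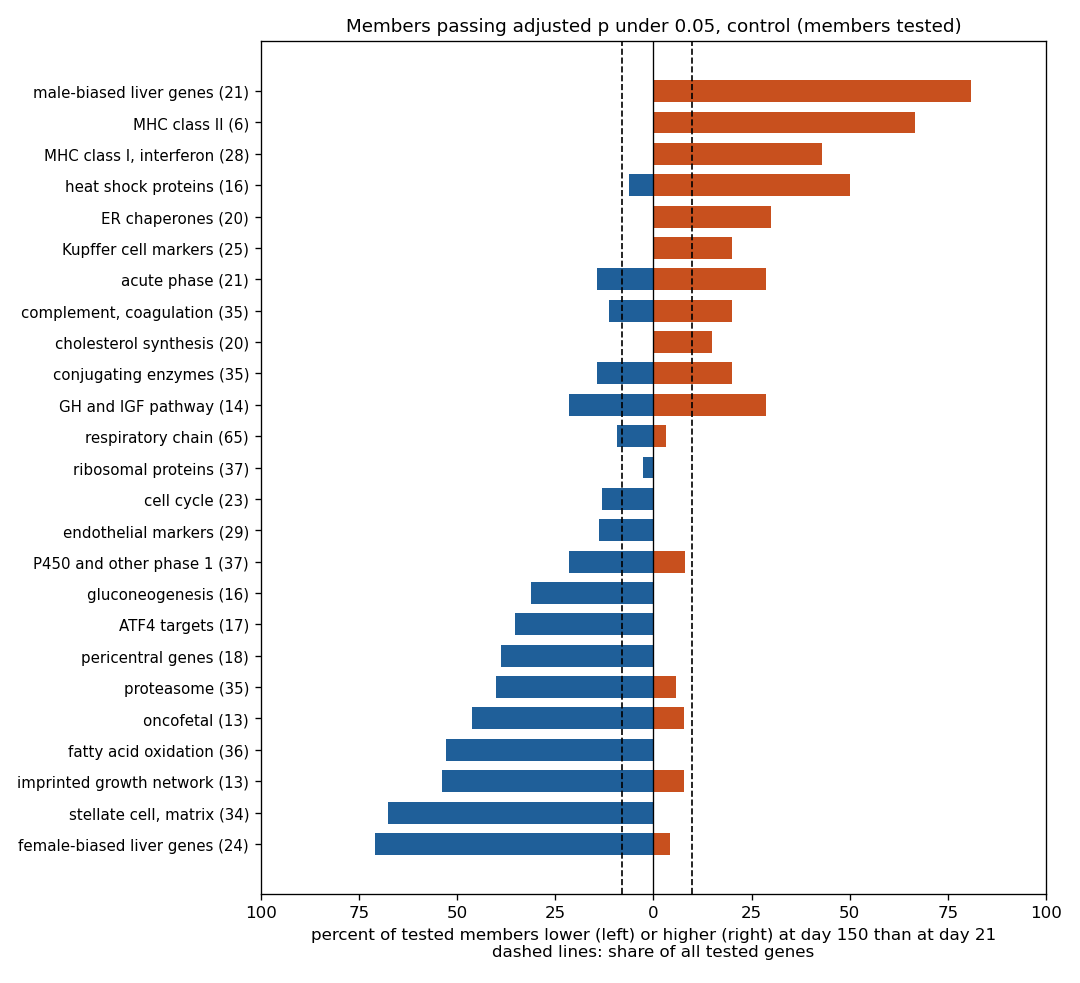
Share of the tested members of 25 gene lists that were higher (right bars) or lower (left bars) at day 150 than at day 21 with an adjusted p under 0.05; numbers in brackets are members tested, and dashed lines are the shares of all genes, 9.70% higher and 8.08% lower. Male-biased and MHC class II genes have the largest shares of rises, female-biased and matrix genes the largest shares of falls, and ribosomal protein genes lie below both lines.

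The HP pregnancy and HP lactation arrays give the same age step in livers that share no array with control. The fit took 1 estimate of spread per gene from all 18 arrays, so passing in control and passing in an HP group are not independent. In HP pregnancy 2602 genes (23.6%) passed and in HP lactation 2830 genes (25.7%). Of the 1069 genes that rose in control, 1047 had the same sign in HP pregnancy and 1059 in HP lactation (78.5% and 77.5% over all genes tested), and 771 and 818 passed in the same direction. Of the 890 that fell, 876 and 879 had the same sign and 657 and 658 passed. None passed in the opposite direction in either, 1203 passed in the same direction in both, and 258 passed in neither. Across all 11018 genes, which are not independent replicates, the correlation of the control change with the HP change was 0.800 for HP pregnancy and 0.796 for HP lactation. The day 150 arrays of those groups had Gapdh ratios of 1.55 to 1.80, against 0.821 to 0.984 on their day 21 arrays, so the quality measure moves with age there too.

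The lists with many calls in control that are given next had medians of 1 sign in all 3 diets. The median change was 1.47 in control, 1.53 in HP pregnancy and 2.27 in HP lactation for male-biased genes, and -2.08, -2.36 and -2.35 for female-biased genes. For matrix genes it was -1.03, -0.85 and -1.16 in the same order, and for fatty acid oxidation genes -0.57, -0.58 and -0.45. Other lists did not: in the same order the median was 0.32, -0.15 and -0.32 for cholesterol synthesis and 0.72, 0.15 and -0.39 for the Arntl phase of the clock. Cell cycle genes had medians of 1 sign but unequal size, -0.17, -0.04 and -1.09. Among single genes, Elovl3 changed by 5.45 in control, 4.66 in HP pregnancy and 6.74 in HP lactation, and Sult2a2 by -9.85, -10.03 and -9.47. Sult3a1 changed by -4.85, -4.88 and -0.31, with signals of 86.6, 30.7 and 357.0 at day 150 and 167.6, 155.9 and 69.4 at day 21 in HP lactation, and the difference from control did not pass (adjusted p = 0.51). Replicate 4 of HP lactation day 150, the array with the Sult3a1 signal of 86.6, is the other array with Xist signal. Its part in the HP lactation change was not tested.

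The difference in age change between control and HP offspring passed for 2 genes each (0.0182% of those tested), with 426 genes at an unadjusted p under 0.05 for control minus HP pregnancy and 562 for control minus HP lactation. Rassf4, a protein with a Ras association domain, had 764.1, 832.1 and 722.0 at day 150, against 94.1, 93.1 and 89.5 at day 21 in control, and its age change minus that in HP pregnancy was 2.42 ± 0.35 (adjusted p = 0.017). Tmie, a membrane protein of hair cells, had 133.3, 141.7 and 442.4 at day 150, against 380.4, 271.9 and 403.7 at day 21 in control, with a difference of 4.06 ± 0.65 (adjusted p = 0.035). Mycn, a transcription factor of the Myc family, had 4.3, 5.8 and 13 at day 150, against 138.4, 257.2 and 83.5 at day 21 in control, and differed from HP lactation by -4.20 ± 0.66 (adjusted p = 0.027). Mup3 differed by -3.10 ± 0.42 (adjusted p = 0.006). The pair for HP pregnancy was 0 without any one of the control day 21 arrays or HP pregnancy day 21 replicate 2, and the pair for HP lactation was 1 (Mup3) without any one of control day 21 replicates 1 and 2, control day 150 replicates 1 and 2, HP lactation day 21 replicate 1 and the 3 HP lactation day 150 arrays. A difference that missed the threshold does not show that the age changes were alike.

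**Figure D5:**
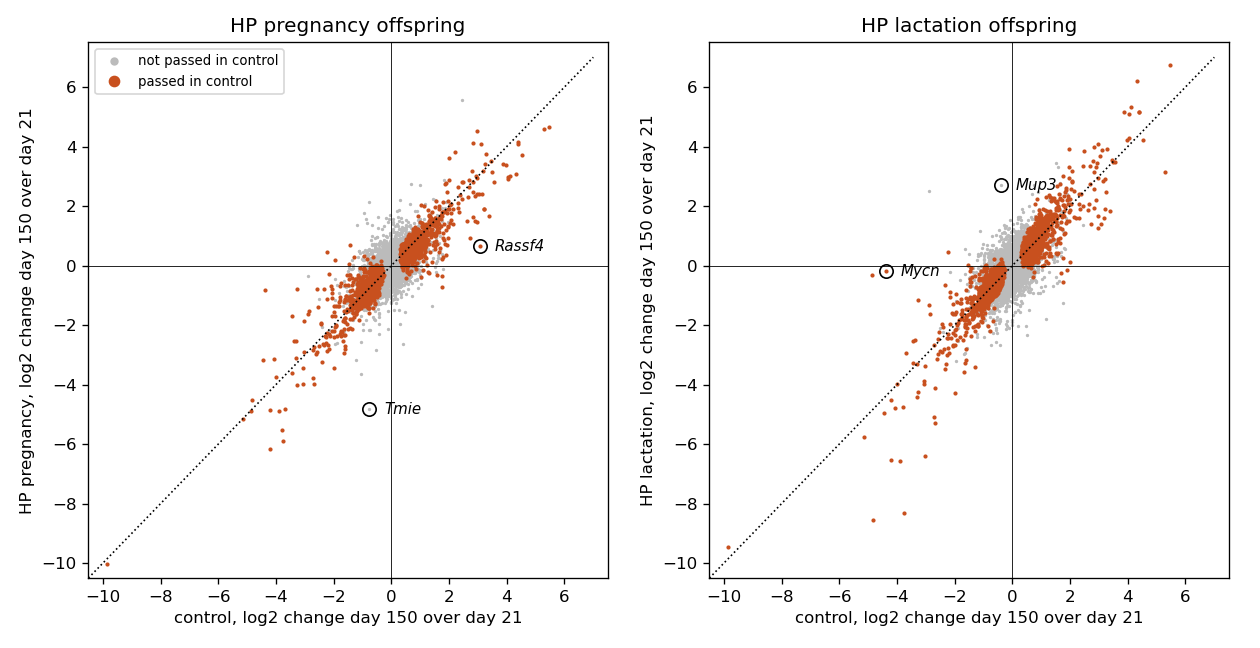
log2 change of day 150 over day 21 in HP pregnancy (left) and HP lactation (right) offspring against the same change in control, 1 point per gene, coloured where the control change passed; the dotted line marks equal changes. Points follow the line, with r of 0.800 and 0.796 across genes, and the circled genes are those whose difference from control passed.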

How the data were processed

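RNA was measured on 18 arrays, of which the 3 control day 150 and 3 control day 21 arrays are compared. Intensity values were deposited as linear MAS5 signals made with GCOS 1.4, per the submitters' processing notes, and scaled to a trimmed mean of 500, as the values show; detection calls were not used here. Of 45101 probe sets, 64 controls were left out. Sets whose mean log2 signal was at or above the median (signal 57.5) and that have 1 gene symbol were kept, and the set with the highest mean stands for its gene, giving 11018 genes. Symbols came from the platform annotation, and 34741 of 34945 sets with 1 symbol matched RefSeq by gene ID. log2 signals were fitted with limma 3.58.1 (R 4.3.3), 1 mean for each of 6 groups, a trended eBayes prior and Benjamini-Hochberg adjustment at 0.05, with 12 residual degrees of freedom. The median SE of an age change was 0.189. The number of arrays limits the precision.

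The replicate numbers did not pair the arrays: deviations of same-numbered arrays correlated at -0.067, -0.046 and 0.013. The members, gene lists and tests were chosen with earlier results of these data known. Named genes are the 15 largest rises and 15 largest falls with groups that do not overlap, up to 4 members of each list and direction with the smallest p, up to 3 genes per direction for each difference between diets, and a set of liver genes (Afp, Alb, Lepr and the like). Other genes named, such as Col1a1, Col1a2, Col3a1, Col4a1, Acta2, Hadha, Hspa5, Hsph1, Bst2, Gbp2, Igtp, Cxcl9, H2-D1, H2-K1, Cyp17a1, Fmo2, Hand2, Pdgfrb, Clec4f, Cela1, Car1, Klf1 and genes that did not pass, were chosen after their values were seen. Alternatives changed the filter, normalization, added constant, prior, arrays in the fit, replicate block, threshold and probe sets; the Gapdh ratio as a covariate and the fit without the arrays with Xist signal were added after seeing the data.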

Additional observations from a re-analysis of the deposited data

Results flagged for a closer look

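In 4 genes the age change differed between control and HP offspring by limma's test of the difference itself. Rassf4 had 764.1, 832.1 and 722.0 at day 150, against 94.1, 93.1 and 89.5 at day 21 in control, and 281.9, 215.3 and 286.8 at day 150, against 240.7, 161.6 and 116.2 at day 21 in HP pregnancy, a difference of 2.42 on the log2 scale. In control every day 150 array lay far above every day 21 array, while the ages overlap in HP pregnancy. Rassf4 lost its call without any one control day 21 array, with adjusted p of 0.061, 0.071 and 0.056, and without HP pregnancy day 21 replicate 2 (0.066). Tmie had 133.3, 141.7 and 442.4 at day 150, against 380.4, 271.9 and 403.7 at day 21 in control, and 17, 19.3 and 8.3 at day 150, against 351.4, 511.4 and 351.9 at day 21 in HP pregnancy, a difference of 4.06. The HP pregnancy day 150 arrays lie below the filter level, so its size is imprecise. Its call was lost when any one of 9 of the 12 arrays was left out, with adjusted p up to 0.22 without control day 21 replicate 2.

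Mup3 had 14258, 17098 and 19034 at day 150, against 24295, 17111 and 25716 at day 21 in control, and 23580.0, 15440.4 and 14423 at day 150, against 1309, 3744 and 3913 at day 21 in HP lactation, a difference of -3.10. The HP lactation day 21 arrays were the low ones, and the call held without any one array of these groups. Mycn had 4.3, 5.8 and 13 at day 150, against 138.4, 257.2 and 83.5 at day 21 in control, and 67.4, 74.3 and 114.1 at day 150, against 59.4, 151.0 and 93.4 at day 21 in HP lactation, a difference of -4.20. The control day 150 signals lie far below the filter level, and the call was lost when any one of 9 of the 12 arrays was left out, with adjusted p up to 0.15 without control day 21 replicate 2.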

How the results depend on the processing

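Counts of rises and falls were 917 and 757 without a filter, 998 and 800 with the filter at the 70th percentile, 1047 and 915 with quantile normalization, 1079 and 902 with 50 added to the signal, 964 and 806 without the trend, 884 and 769 in a fit of the 6 control arrays, and 1473 and 1244 at an adjusted p under 0.10. With every kept probe set they were 1468 and 1420 of 19349 sets, and with the Gapdh ratio in the fit 33 and 19. With the replicate number as a block the counts were 1014 and 845; the numbers did not pair the arrays. Leaving out 1 control array gave 643 to 1001 rises and 508 to 757 falls, and 847 of the 1959 genes passed in all 6 such fits. The difference from HP pregnancy was called for 0 to 2 genes and that from HP lactation for 1 to 3 when 1 array was left out, and the difference from HP pregnancy for 1 gene without a filter and for 1 with 50 added. With the Gapdh ratio in the fit the sign turned for Alb (-0.51), C1qa (-0.057), Cyp2d9 (-0.014), Des (-1.06), Gstp1 (-0.19), Scd1 (-0.21), Slc22a27 (0.50), Tmie (0.027) and Vsig4 (-0.14), of which Slc22a27 alone had passed. Among genes that did not pass, leaving out 1 control array turned the sign in a range of -0.017 to 0.22 for Alb (lowest without day 21 replicate 3), -0.45 to 0.73 for Des (-0.18 without day 150 replicate 3), -0.17 to 0.025 for Pck1 (highest without day 150 replicate 1), -0.065 to 0.21 for Psmb10 (lowest without day 150 replicate 1), -0.12 to 0.15 for Psme1 (lowest without day 150 replicate 1) and -0.37 to 0.022 for Reln (highest without day 21 replicate 1). MAS5 signals near or below 57.5 limit the size of many large falls and some large rises. The cause of these dependences was not tested.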

Other observations

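Carboxylesterases, which split esters of drugs and lipids, changed in both directions. Of 9 tested 3 rose (33.3%) and 3 fell (33.3%), beside 9.70% and 8.08% of all genes, and the same counts held without any one control array. Ces1f had 21394, 26142 and 24302 at day 150, against 10026, 10268 and 7798 at day 21 (1.36 ± 0.15, adjusted p = 5.5e-06), and Ces1e rose as well (0.72 ± 0.14, adjusted p = 0.0023). Ces1g had 2867, 2513 and 3470.1 at day 150, against 7983, 9728 and 9068 at day 21 (-1.61 ± 0.24, adjusted p = 0.00017), and Ces2g fell as well (-1.03 ± 0.24, adjusted p = 0.0069). With the Gapdh ratio in the fit 0 of the 9 passed.

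Serpina12, which encodes the secreted serpin vaspin, had 1237, 1274 and 2377 at day 150, against 305.6, 121.6 and 225.7 at day 21 (2.93 ± 0.40, adjusted p = 7e-05). Car2, a carbonic anhydrase, had 295.6, 230.4 and 465.8 at day 150, against 1159, 1847 and 1402 at day 21 (-2.19 ± 0.23, adjusted p = 4.6e-06). Bco1, which cleaves beta-carotene to vitamin A, fell (-1.23 ± 0.19, adjusted p = 0.00025), and Adh4 of retinol oxidation rose (1.04 ± 0.19, adjusted p = 0.0009).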
